A study of Caenorhabditis elegans with 2 samples.

Results

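Long intergenic noncoding RNA (lincRNA) genes named with the prefix linc- were examined for regions bound by FKH-2, a forkhead transcription factor, in larvae of Caenorhabditis elegans. The members were all genes of biotype lincRNA with such a name in the WBcel235 annotation of Ensembl, the assembly called ce11. They numbered 169 of the 194 genes of that biotype and of the 46890 annotated genes on the 6 nuclear chromosomes. A peak was assigned to a linc- gene when the peak point, the deposited position of the peak's centre, lay in the gene or within 500 bp of either end, and 121 of the 30000 pooled peaks met that rule. The rule for the genes uses no measured value, but it was chosen with earlier results of these data known.

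FKH-2 occupancy was mapped by chromatin immunoprecipitation and sequencing (ChIP-seq) in whole L3 larvae, with males and hermaphrodites mixed, as 2 biological replicates of 1 group. All animals were of strain OP185, genotype unc-119(ed3) III; wgIs185, in which an integrated transgene supplies FKH-2 with an eGFP tag, an enhanced form of green fluorescent protein. The tagged copy therefore acts in animals that carry the unc-119(ed3) allele and also hold the endogenous fkh-2 gene, the antibody is labelled only fkh-2, and the cells in which the transgene is active were not stated. The study has no second condition, control libraries were not analysed here, and a whole-animal library does not tell in which cells a region was bound.

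LincRNAs are transcribed from their own loci outside protein-coding exons, are spliced and capped like messenger RNAs in many cases, and carry no long reading frame. In the worm most of them were found from RNA sequencing, many are expressed at few stages or in few cells, and for only a small number is a role known. Forkhead factors bind DNA through a winged-helix domain that recognises a short core, typically GTAAACA. In the worm FKH-2 is known for its part in the development of ciliated sensory neurons.

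Of the 169 linc- genes, 5 had a peak in the set that passed the irreproducible discovery rate (IDR), a filter on the ranks of peaks in replicate lists, whose threshold was not stated. They were linc-81, linc-90, linc-128 and the overlapping pair linc-110 and linc-133, which share 1 peak. The sequences of these 4 peaks are shown first because they are the strongest FKH-2 regions at any linc- gene, followed by those of linc-151, linc-48 and linc-143, which illustrate a peak ranked far apart by the replicates, a forkhead core and a long GA repeat. Each is the full deposited peak interval on the plus strand of ce11, and capitals mark GTAAACA or ATAAACA, the forkhead core, and GAGAGA, each on either strand (TGTTTAC or TGTTTAT, and TCTCTC, when read on the plus strand).
linc-81, chrV:19897606-19897895: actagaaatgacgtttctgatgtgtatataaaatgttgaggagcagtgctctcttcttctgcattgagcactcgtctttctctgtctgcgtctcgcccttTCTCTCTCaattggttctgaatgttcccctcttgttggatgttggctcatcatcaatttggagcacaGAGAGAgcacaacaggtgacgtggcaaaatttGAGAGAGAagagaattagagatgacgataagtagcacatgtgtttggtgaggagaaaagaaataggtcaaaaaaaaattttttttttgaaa
linc-90, chrIII:354783-355072: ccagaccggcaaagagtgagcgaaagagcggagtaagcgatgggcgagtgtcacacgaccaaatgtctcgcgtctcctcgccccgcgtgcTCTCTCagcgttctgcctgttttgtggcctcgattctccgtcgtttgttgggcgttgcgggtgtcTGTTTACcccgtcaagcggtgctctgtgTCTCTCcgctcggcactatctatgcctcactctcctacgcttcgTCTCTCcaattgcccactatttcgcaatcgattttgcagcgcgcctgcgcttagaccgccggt
linc-110 and linc-133, chrII:7838700-7838989: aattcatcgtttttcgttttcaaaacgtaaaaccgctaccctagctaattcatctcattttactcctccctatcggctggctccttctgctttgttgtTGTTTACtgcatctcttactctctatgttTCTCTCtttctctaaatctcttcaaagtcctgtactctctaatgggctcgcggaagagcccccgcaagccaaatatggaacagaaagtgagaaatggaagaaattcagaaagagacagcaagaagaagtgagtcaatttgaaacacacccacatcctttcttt
linc-128, chrV:1151372-1151661: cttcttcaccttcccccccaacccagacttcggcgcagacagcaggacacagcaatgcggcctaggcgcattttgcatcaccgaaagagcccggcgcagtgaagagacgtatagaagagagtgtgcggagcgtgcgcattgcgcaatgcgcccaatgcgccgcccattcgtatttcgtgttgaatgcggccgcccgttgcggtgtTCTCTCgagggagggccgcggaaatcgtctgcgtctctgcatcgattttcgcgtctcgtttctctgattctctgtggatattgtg
linc-151, chrIV:11809813-11810102: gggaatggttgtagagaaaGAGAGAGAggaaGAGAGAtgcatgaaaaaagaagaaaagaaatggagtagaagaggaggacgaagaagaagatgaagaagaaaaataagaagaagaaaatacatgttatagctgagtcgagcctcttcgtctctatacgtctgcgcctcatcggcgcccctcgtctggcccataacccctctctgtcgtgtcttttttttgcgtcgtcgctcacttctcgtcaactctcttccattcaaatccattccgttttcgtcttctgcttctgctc
linc-48, chrX:17422368-17422657: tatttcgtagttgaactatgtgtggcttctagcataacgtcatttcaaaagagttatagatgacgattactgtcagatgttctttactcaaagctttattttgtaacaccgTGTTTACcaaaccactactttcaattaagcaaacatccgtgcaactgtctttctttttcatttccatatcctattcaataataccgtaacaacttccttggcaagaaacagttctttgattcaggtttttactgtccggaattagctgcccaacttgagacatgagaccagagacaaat
linc-143, chrIII:3037274-3037563: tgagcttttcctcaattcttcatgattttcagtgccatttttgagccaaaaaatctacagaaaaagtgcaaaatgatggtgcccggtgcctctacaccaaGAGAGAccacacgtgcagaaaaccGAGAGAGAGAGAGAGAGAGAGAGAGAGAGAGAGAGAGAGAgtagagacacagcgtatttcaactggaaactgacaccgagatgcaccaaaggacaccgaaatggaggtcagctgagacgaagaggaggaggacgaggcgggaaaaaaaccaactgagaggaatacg

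The strongest peak at a linc- gene was that of linc-81 (WBGene00219636), a gene of 2112 bp on the minus strand of chromosome V with 2 exons. Its score, the signal value that the authors' peak caller gave the region, was 30.8 in the pooled list, where it ranked 67 of 30000 (rank 1 being the highest score). The overlapping peak scored 19.8 (rank 82) in replicate 1 and 7.15 (rank 1175) in replicate 2, so it was high in both lists. The peak point lay in an exon, 44 bp inside the annotated start, and linc-81 was the only linc- gene with an IDR peak within 500 bp of its start. The nearest protein-coding start, that of Y116F11B.14, was 1716 bp away. The sequence printed above holds GAGAGA on both strands and no forkhead core.

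The peak of linc-90 (WBGene00219745; 3181 bp, chromosome III) ranked 99 with a pooled score of 27.5. The replicates ranked it very differently. It scored 22.8 in replicate 1, where it ranked 50, and 2.36 in replicate 2, where it ranked 20626 of 24744. The point was in an intron of linc-90, 2706 bp from its start, and only 128 bp upstream of a start of gei-4, which encodes a protein found by its interaction with the cell migration factor GEX-3. Linc-90 overlaps gei-4, and a region so close to a gei-4 start cannot be assigned to either gene from these lists. Its sequence, with a GC content of 58.3%, holds a forkhead core 10 bp from the peak point and GAGAGA at 3 places. A second pooled peak of linc-90, with a score of 8.02 (rank 7518), overlaps the first and has the same replicate peaks as counterparts, so it is no separate observation.

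Linc-110 (WBGene00219605; 5054 bp, minus strand) and linc-133 (WBGene00219606; 3660 bp, plus strand) overlap on chromosome II, and 1 IDR peak lay in an exon of each. It scored 27.3 in the pooled list (rank 103). The 2 replicates ranked it more alike than any other IDR peak of a linc- gene, with 13.7 (rank 310) in replicate 1 and 12.4 (rank 98) in replicate 2. The latter was the highest replicate 2 score at any linc- gene. The point was 2283 bp from the start of linc-110 and 1019 bp from that of linc-133, within 200 bp of the noncoding gene T09A5.18, and 3431 bp from the nearest protein-coding start, that of cex-2, which encodes a calcium-binding protein. Its sequence holds a forkhead core 47 bp from the point and GAGAGA 18 bp from it. Both genes shared another peak (score 11.7, rank 1937), which had a counterpart in replicate 1 (rank 5295) and none in replicate 2. Linc-110 alone had a further exonic peak (15.2, rank 718), ranked 336 in replicate 1 and 13144 in replicate 2.

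Linc-128 (WBGene00219734; 2302 bp, chromosome V) had the weakest of the 4 IDR peaks, with a pooled score of 22.3 (rank 201), against a lowest score of 22.2 in the whole IDR set of 203 peaks. The counterpart scored 19.4 (rank 89) in replicate 1 and 4.61 (rank 5900) in replicate 2. It lay in the single exon of the gene, 611 bp from its start, and 4754 bp from the start of cmd-1, the gene of calmodulin. No motif searched was within 50 bp of the point, and the 1 copy of GAGAGA lay 60 bp away. The weaker peaks of linc-128 (6.28 and 4.37) had counterparts in replicate 1 alone.

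Pooled peaks were less frequent at linc- genes than at protein-coding genes, while strong ones were more frequent. A pooled peak was present at 82 linc- genes (48.5%, Wilson 95% interval 41.1 to 56.0), against a background of 65.2% of the 19973 protein-coding genes under the same rule and 42.6% of 7764 noncoding genes that the annotation leaves unclassified. A pooled peak overlapped by at least 1 bp in both replicate lists was present at 36 linc- genes (21.3%, 15.8 to 28.1), against 17.8% and 11.1%. An IDR peak was present at 5 (2.96%, 1.27 to 6.74), against 0.801% and 0.863%. The IDR count rests on 4 regions, since linc-110 and linc-133 share theirs. All such intervals cover counting error over genes or peaks only, not the spread between animals. The number of reads behind each region is unknown, because the lists give none. The pooled list is permissive, as its deposited q-values reach 0.541, and most of its weak regions did not recur in both replicates.

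**Figure D1:**
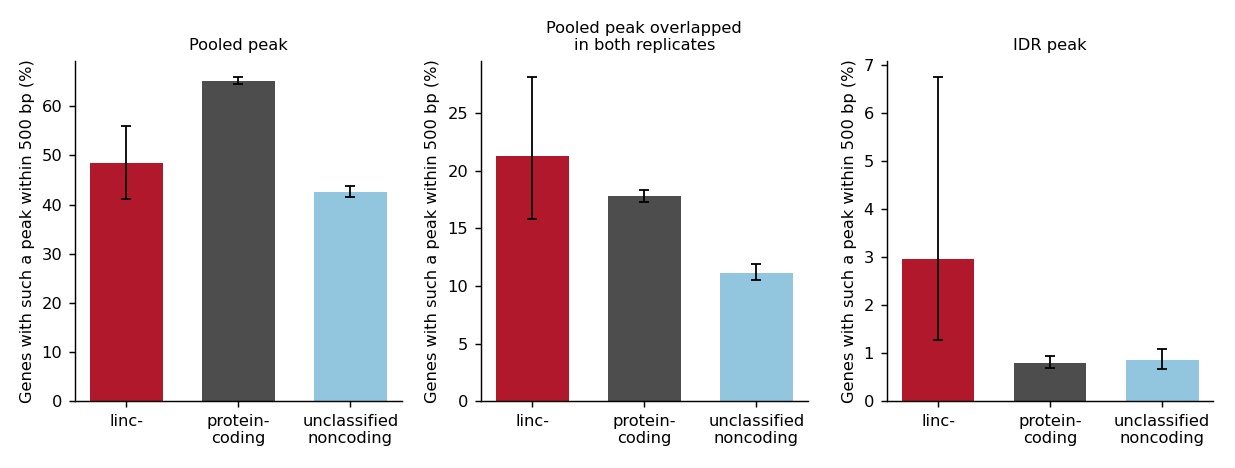
Share of genes (%) with a pooled peak, a pooled peak overlapped in both replicates and an IDR peak within 500 bp, for 169 linc- genes, 19973 protein-coding genes and 7764 unclassified noncoding genes. Bars are shares and whiskers Wilson 95% intervals. The linc- bar is below the protein-coding bar for pooled peaks (48.5% and 65.2%) and above it for IDR peaks (2.96% and 0.801%), where its whisker is widest.

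Linc- genes are short, with a length of 101 to 6035 bp and a median of 727 bp, against 2027 bp for protein-coding genes, and 53 of them have 1 exon. Those with a pooled peak had a median length of 1178 bp and those without one 578 bp. Within bands of length the gap in pooled peaks narrowed, although the bands are wide and the longest has no upper limit. Among genes of up to 500 bp, 23 of 61 linc- genes had a pooled peak (37.7%, 26.6 to 50.3) and 33.3% of protein-coding genes did. From there up to 1500 bp it was 25 of 57 (43.9%, 31.8 to 56.7) against 50.2%, and over 1500 bp it was 34 of 51 (66.7%, 53.0 to 78.0) against 74.7%, so that the protein-coding share was inside the linc- interval in each band. For peaks overlapped in both replicates the linc- share was the higher in each band, at 13.1%, 17.5% and 35.3% against 6.39%, 10.4% and 22.1%, and the protein-coding value lay below the interval in the shortest and the longest band (6.80 to 23.8 and 23.6 to 49.0).

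**Figure D2:**
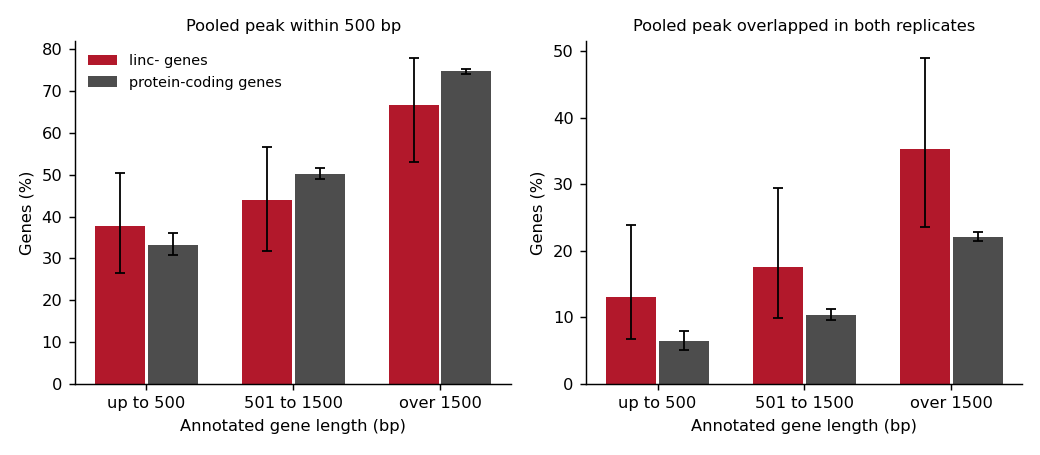
Share of linc- and protein-coding genes (%) with a pooled peak within 500 bp (left) and with one overlapped in both replicates (right), by annotated gene length in bp. Bars are shares and whiskers Wilson 95% intervals. Both classes rise with length, the pooled shares of the 2 classes lie close within each band, and the linc- share overlapped in both replicates is above the protein-coding share in each.

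Counted per length of sequence, linc- loci held about as many pooled peaks as protein-coding loci and fewer than unclassified noncoding ones. The 121 peaks fell in 376 kb of gene bodies and flanks, a density of 0.322 per kb, against 0.310 at protein-coding genes, 0.414 at unclassified noncoding genes and 0.299 over the genome. The linc- density was 0.296 per kb with 200 bp flanks and 0.310 with 1000 bp flanks. The other classes were measured with 500 bp flanks only, so whether the small lead over protein-coding loci holds at other flanks was not tested. Taken alone, replicate 1 gave 0.380 per kb at linc- loci and 0.299 over the genome, and replicate 2 gave 0.282 and 0.247. Both replicate lists were thus denser at linc- loci than over the genome. They were denser still at unclassified noncoding genes, with 0.405 per kb in replicate 1 and 0.319 in replicate 2. The shares differed among chromosomes: 7 of 21 linc- genes on chromosome I (33.3%) and 8 of 22 on III (36.4%) had a pooled peak, against 18 of 34 on II (52.9%), 15 of 26 on IV (57.7%), 16 of 33 on V (48.5%) and 18 of 33 on X (54.5%). The protein-coding shares had another order, highest on III (71.7%) and lowest on V (59.7%). With only 21 to 34 linc- genes per chromosome and no interval computed, the order of the linc- shares may be counting error. The 36 genes with a peak overlapped in both replicates were 2, 11, 3, 6, 8 and 6 on chromosomes I, II, III, IV, V and X.

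Most linc- genes had few peaks. None was present at 87, there was 1 at 52, 2 at 21, 3 at 5 and 4 at 4 genes. The genes with 4 were linc-22, linc-90, linc-91 and linc-146, each over 3000 bp long. Linc-22 (4598 bp, 5 exons, chromosome X) showed how little the count alone says of strength, since its peaks scored 10.2, 8.24, 5.63 and 5.35 and only the second of them had a counterpart in each replicate.

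The peaks at linc- genes were stronger than the pooled list as a whole. The lowest of their scores was 4.30, the median 7.13 and the highest 30.8 (quartiles 5.44 and 9.77, n = 121), against a median of 6.19 (5.10 and 8.02) over the whole list and 6.17 at protein-coding genes. Among the 3000 highest-scoring pooled peaks, which are 10% of the list, were 27 linc- peaks (22.3%, 15.8 to 30.5), against 9.43% of the peaks at protein-coding genes and 15.4% of those at unclassified noncoding genes. Per gene, the median best rank was 7247 (quartiles 2440 and 16354, n = 82), against 10310 for protein-coding genes with a peak. The best peak ranked within 500 at 8 linc- genes and within 3000 at 24.

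The difference in strength was also present when peaks inside protein-coding genes were set aside. The point of 104 linc- peaks (86.0%) lay outside protein-coding genes, against 36% of the whole list. Of these 104, 24 were among the 3000 strongest (23.1%, 16.0 to 32.0), against 13.4% (12.8 to 14.1) of the 10706 other pooled peaks outside protein-coding genes, with median scores of 7.36 and 6.38. Of those outside protein-coding genes that also had no protein-coding start within 500 bp, 18 of 92 linc- peaks (19.6%, 12.7 to 28.8) and 11.7% of 7884 others (11.0 to 12.4) were among the 3000 strongest. The overlap in both replicates was 32.7% (24.4 to 42.2) and 20.5% (19.7 to 21.2) outside protein-coding genes. Median GC content was 37.1% and 36.2%.

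**Figure D3:**
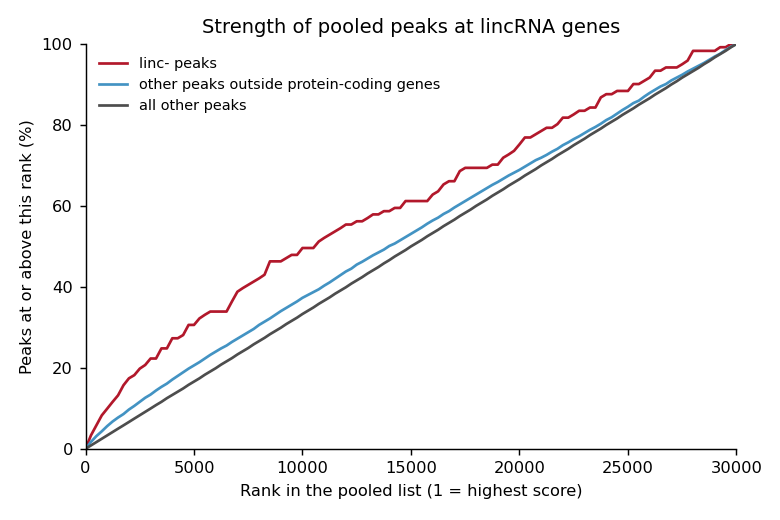
Cumulative share of peaks (%) at or above each rank of the pooled list (rank 1 is the highest score) for the 121 linc- peaks, the 10706 other peaks outside protein-coding genes and all other peaks. The linc- curve runs above both others over most of the range and reaches 22.3% at rank 3000, where the other peaks outside protein-coding genes reach 13.4%.

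The comparison that the design holds is that between the replicates. Of the 121 linc- peaks, 87 (71.9%, 63.3 to 79.1) overlapped a peak of replicate 1, 57 (47.1%, 38.4 to 56.0) one of replicate 2, 39 (32.2%, 24.6 to 41.0) one of each and 16 (13.2%, 8.31 to 20.4) none. The whole list gave 58.1%, 40.6%, 17.5% and 18.9%. The 87 and 57 overlaps fell on 83 and 55 distinct replicate peaks, as neighbouring pooled peaks can share one. Overlap rose with strength: 16 of the 27 linc- peaks ranked within 3000 were in both replicates (59.3%, 40.7 to 75.5), 16 of the 33 ranked after that up to 10000 (48.5%, 32.5 to 64.8) and 7 of the 61 weaker ones (11.5%, 5.67 to 21.8). In the whole list these shares were 54.3%, 25.2% and 9.32%. Within a band of rank, the linc- interval lay above the share of the list in the middle band and included it in the other bands. Linc- peaks were also placed more often in the strongest band, 22.3% against 10% of the list, where overlap was highest in both.

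The replicates shared little order of strength at these peaks. Over the 39 linc- peaks found in both replicates the replicate scores had a Spearman correlation of -0.00871 and a Pearson correlation of 0.0571. Over the 5258 such peaks of the whole list they were 0.140 and 0.390. These points share 2 libraries and are given as a description. Nor are the 39 all distinct, since 2 peaks of linc-90 have the same replicate counterparts, as do 2 upstream peaks of linc-146. No correlation without these repeats was computed. Of the 39, 16 ranked higher in replicate 1 than in replicate 2. Ranks within 3000 were held by 10 of them in replicate 1, by 8 in replicate 2 and by 3 in both: the peak of linc-81, that shared by linc-110 and linc-133, and the upstream peak of linc-91. The repeated counterpart of linc-90 is counted 2 times in the 16 and in the 10. In replicate 1 linc- peaks scored 2.65 to 22.8, median 5.30 (n = 87; list median 4.22), and in replicate 2 they scored 2.18 to 12.4, median 4.38 (n = 57; list median 3.31). The 2 lists differ in peak width and in how far down they go, with q-values up to 0.356 and 0.0502, so scores are not compared between them.

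**Figure D4:**
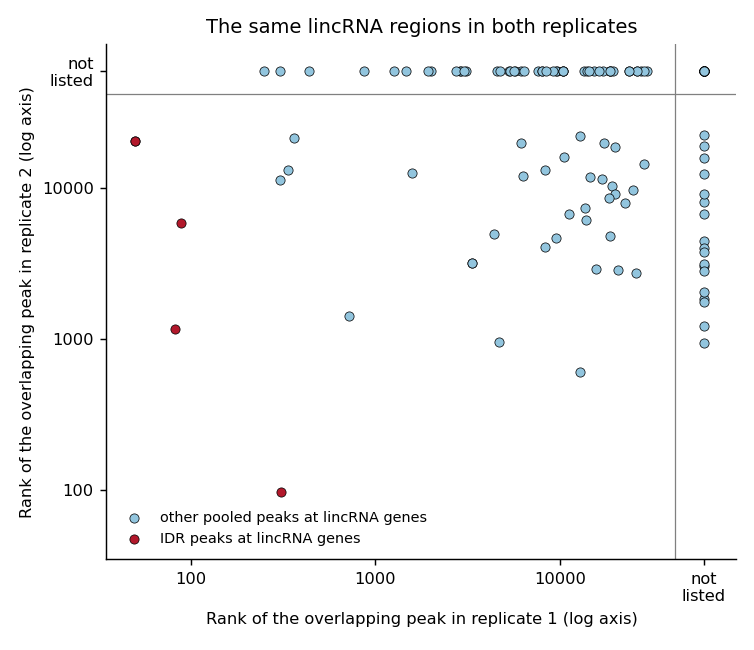
Rank of the overlapping peak in replicate 1 (x axis, log scale) and replicate 2 (y axis, log scale) for the 121 pooled peaks at linc- genes. Each point is a pooled peak, IDR peaks are red, and peaks with no counterpart sit in the margins. The points show no common order, and of the 4 IDR peaks all rank within 310 in replicate 1 while their replicate 2 ranks run from 98 to 20626.

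Searched on its own, without the pooled list, replicate 1 had a peak within 500 bp of 93 linc- genes and replicate 2 of 81. Both had one at 56, replicate 1 alone at 37 and replicate 2 alone at 25. All 3 lists had a peak at 49 linc- genes and none of the 3 at 47. At 7 linc- genes both replicates had peaks where the pooled list had none, and at 4 the pooled list alone had one. The 203 strongest peaks of replicate 1 alone reached linc-81, linc-90 and linc-128, and those of replicate 2 alone reached linc-110 and linc-133, so no linc- gene was reached by both.

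Below the IDR set, the best-ranked linc- gene with counterparts in both replicates was linc-151 (944 bp, chromosome IV). Its peak lay 285 bp past the end of the gene with a pooled score of 17.8 (rank 404). Here replicate 2 was the stronger, with a score of 8.27 (rank 603) against 4.56 (rank 12861) in replicate 1. The nearest protein-coding start, that of M117.1, was 4289 bp away. The peak of linc-48 (454 bp, chromosome X) had the opposite order, with rank 305 in replicate 1 and 11271 in replicate 2 for a pooled score of 16.0 (rank 573). It lay 173 bp past the end of linc-48 and 931 bp from the start of osm-11, which encodes a secreted Notch co-ligand, and its sequence holds a forkhead core 34 bp from the point.

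Linc-91 (3257 bp, chromosome I) had 2 of the stronger peaks. One was in its exon (17.1, rank 459), with ranks of 362 and 21526 in replicates 1 and 2. The other, 132 bp upstream of its start (14.3, rank 899), ranked 724 and 1433 and was the more even of the pair. It lay 903 bp from the start of chd-7, which encodes a chromatin remodeller. Both had GAGAGA within 50 bp of the point. Linc-126 on chromosome IV had a peak 275 bp upstream of its start (15.6, rank 648; replicate ranks 1586 and 12550), 1505 bp from a start of dgk-4, a diacylglycerol kinase gene.

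Linc-146 on chromosome V had a peak 362 bp upstream of its start and 2118 bp from the start of egl-3, a proprotein convertase gene, that both replicates ranked nearly the same, 3322 and 3197 (pooled score 13.1, rank 1246). The peak of linc-44 on chromosome II (12.5, rank 1496) lay 27 bp upstream of its start and within 200 bp of a tRNA gene, and was weak in each replicate (ranks 12887 and 22029). Linc-143 lies within daf-2, the gene of the insulin and IGF receptor, and its exonic peak (12.2, rank 1648; replicate ranks 4406 and 4972) was in a daf-2 intron, 3427 bp from the nearest daf-2 start. Its point falls in the GA repeat shown in capitals above, where 19 copies of GAGAGA, most of them overlapping, were found in the peak. Of the 31-base words of that peak, 6.15% occurred again in the genome.

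The remaining 8 of the 20 best-ranked linc- genes whose best peak had a counterpart in each replicate had best pooled ranks from 1699 to 4589. With pooled scores in parentheses, they were linc-131 (12.1), linc-117 (11.5), linc-94 (10.6), linc-67 (10.1), linc-14 (10.1), linc-164 (9.74), linc-129 (9.40) and linc-152 (9.34). The linc-131 point lay 389 bp past its end and 284 bp from the start of the ubiquitin-conjugating enzyme gene ubc-3. That of linc-117 was 237 bp from the start of VC5.2. The linc-67 point was in an untranslated region of C10A4.13, 56 bp from a start of that gene. For the others the nearest protein-coding start was farther. It was 1864 bp away for linc-94 (kvs-5, a potassium channel gene) and 946 bp for linc-14 (C18D4.6). For linc-164 it was 1777 bp away (ras-1, a Ras-related gene) and for linc-152 7056 bp (tig-3). For linc-129 it was 1722 bp away (sca-1, the gene of the sarco-endoplasmic reticulum calcium pump). For each of these 8 genes, at least 1 replicate ranked the region at 8266 or further down. For linc-94, for example, the ranks were 25676 and 2730, and for linc-131 20604 and 2865. Linc-14 was more even, at 8266 and 4083.

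Some strong pooled peaks at linc- genes had no counterpart in 1 or both replicates. These genes were chosen after their values were seen. That of linc-78 (16.9, rank 490), 132 bp upstream of its start and 365 bp from the start of the ribosomal protein gene rpl-11.2, ranked 250 in replicate 1 and had no counterpart in replicate 2. Linc-142 (14.0; replicate 1 rank 1463) and linc-27 (12.4; replicate 1 rank 304) likewise had none in replicate 2. Both peaks inside linc-155 (13.4 and 11.2; ranks 1134 and 2336) and that of linc-109 (11.1, rank 2372) had no counterpart in either replicate.

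Linc-73 was examined because its locus lies upstream of unc-104, the gene of an axonal kinesin. It is 371 bp long and 995 bp from the unc-104 start. No list had a peak within 500 bp of it, and the nearest pooled point was 2562 bp away. The longest linc- genes without a pooled peak were linc-167 (5651 bp), linc-165 (3838 bp) and linc-29 (3220 bp). In the replicate lists searched on their own, linc-167 had peaks in both (best ranks 22275 and 3906 in replicates 1 and 2), as did linc-165 (20533 and 13425), and linc-29 had one in replicate 1 (26272). Absence from a list says only that no region was listed there at an unknown depth.

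Peaks were spread over linc- loci in proportion to length. Of the 125 pairs of a gene and a peak, 69 (55.2%) had the point inside the gene, 31 (24.8%) upstream and 25 (20%) downstream, and gene bodies make up 55.8% of that territory and each flank 22.1%. Of the 69 inside, 51 (73.9%) were in exons, which make up 65.9% of the gene bodies. Median scores were 7.77 in exons (n = 51), 6.32 in introns (n = 18), 7.77 upstream (n = 31) and 6.28 downstream (n = 25). The shares overlapped in both replicates were 35.3%, 16.7%, 32.3% and 40.0%. Of the 29 pairs among the 3000 strongest peaks, 16 were inside, 10 upstream and 3 downstream. The strong peaks were thus seldom downstream, although the downstream share that recurred in both replicates was the highest of the 4. With 3 to 18 peaks behind each of these shares and no interval computed, their order may be counting error.

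**Figure D5:**
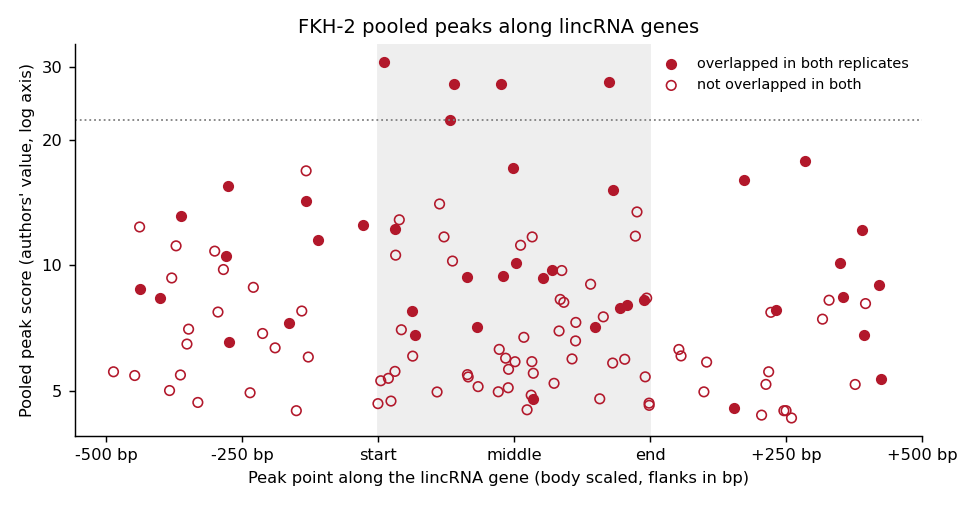
Pooled peak score (authors' value, log axis) against position of the peak point along the linc- gene for 125 pairs of a gene and a peak. Gene bodies are scaled to one length (shaded), flanks are in bp, and filled points are peaks overlapped in both replicates. The dotted line is the lowest score of an IDR peak at a linc- gene (22.3, that of linc-128). The 5 points on or above it are all inside gene bodies, 1 of them close to the start.

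Around the annotated start alone, linc- genes were close to protein-coding genes. Within 500 bp of a start, 52 linc- genes had a pooled peak (30.8%, against 36% of protein-coding genes), 14 had one overlapped in both replicates (8.28% against 7.94%) and 1 had an IDR peak (0.592% against 0.491%). With the point inside the gene, the shares were 27.8% and 51.0% for pooled peaks, 10.7% and 12.1% for both replicates, and 2.96% and 0.230% for IDR peaks. All 5 linc- genes with an IDR peak had its point inside the gene, and for 4 of them it lay over 500 bp from the annotated start.

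The peaks lay farther from protein-coding starts than the whole list, which the choice of genes annotated as intergenic favours. The nearest such start was within 500 bp for 21 linc- peaks (17.4%, against 26.6% of the whole list). It was from 500 to 2000 bp away for 37 (30.6% against 41.6%) and farther for 63 (52.1% against 31.8%). The median distance was 2066 bp against 1191 bp. Among peaks outside protein-coding genes alone, 92 of 104 linc- peaks and 7884 of 10706 others had no such start within 500 bp. Linc- genes are annotated as intergenic, although 39 of the 169 overlap a protein-coding gene on some strand, and the point of 17 of the 121 peaks was within one, 8 in introns, 6 in untranslated regions and 3 in coding sequence.

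The forkhead core GTAAACA or ATAAACA was within 50 bp of the point, on either strand, in 11 of 121 linc- peaks (9.09%, 5.15 to 15.5), against 4.15% of the whole pooled list, 5.26% of the other peaks outside protein-coding genes and 15.3% of the IDR set. GAGAGA was present in 18 (14.9%, 9.62 to 22.3), against 8.25%, 10.5% and 38.4%. A looser forkhead core that contains the first (a purine, a pyrimidine, AAA, a pyrimidine, A) was present in 23 (19.0%, 13.0 to 26.9), against 16.9% of the whole list. Among the 27 linc- peaks ranked within 3000, 4 had the forkhead core (14.8%, 5.92 to 32.5, against 6.83% of all 3000), 9 had GAGAGA (33.3%, 18.6 to 52.2, against 16.6%) and 4 had the looser core (14.8%, 5.92 to 32.5, against 19.6%). Among linc- peaks overlapped in both replicates the shares were 12.8%, 23.1% and 17.9%, and among the others 7.32%, 11.0% and 19.5%. The 2 narrower motifs were thus at higher shares in the stronger and recurring linc- peaks and the looser core at lower ones, on 4 to 9 peaks each, with wide intervals. A match describes the letters of these windows and does not show which of them FKH-2 contacts.

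Sequence repeats were rare at these peaks. Median GC content was 37.2%, as in the whole list, against 43.4% in the IDR set. Only 1 linc- peak, that downstream of linc-25 (rank 5223), had over 50% of its 31-base words present more than once in the genome (70.0%). Short reads may be hard to place there. That peak is 0.826% of the linc- peaks, against 0.297% of the whole list.

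The distance rule placed 3 genes just inside the 500 bp limit and 3 just outside. Inside were linc-104 (nearest point at 447 bp, score 5.44, rank 19943), linc-27 (438 bp, 12.4, rank 1558) and linc-108 (401 bp, 8.33, rank 6717). Outside were linc-75 (507 bp, 5.37, rank 20435), linc-60 (518 bp, 5.98, rank 16325) and linc-37 (527 bp, 16.0, rank 575). The last of these, which has counterparts in both replicates (ranks 2090 and 5918), would have been among the stronger peaks of the set.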

How the data were processed

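FKH-2 ChIP-seq peak lists of 2 biological replicates, their pool and the IDR set were used in build ce11. Per the deposited text files, replicate and pooled lists came from alignments together with a control file, as input for IDR. The aligner, peak caller, IDR threshold and read depth are not given in the sources used here. The score of each peak is the value that the authors' caller deposited, on an unstated scale, and was used for ranks and description inside each list. The −log10 of the q-value is likewise as deposited by the authors. The ce10 lists were not used here, since no coordinates were converted between builds. There were 0 other columns of sample values.

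Gene models were those of Ensembl release 115 and sequence was that of WBcel235. A pooled peak belonged to a gene when its point was within 500 bp. Its counterpart was the best-scoring replicate peak that overlapped it by at least 1 bp. Shares carry Wilson 95% intervals, and no test was made. Motifs were searched within 50 bp of the point on both strands, and repeats by 31-base words found again in the genome. Named genes were all linc- genes with an IDR peak, those with the 20 best pooled ranks among genes whose best peak overlapped both replicates, linc-73, the 3 nearest the 500 bp limit on each side, and the protein-coding gene with the nearest start to a named peak. The members, lists and rules were chosen with earlier results of these data known. Scripts were tested on simulated lists. Python 3.11.15, numpy 2.4.6, pandas 2.3.3, scipy 1.17.1 and matplotlib 3.10.9 were used.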

Additional observations from a re-analysis of the deposited data

How the results depend on the processing

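The count of 82 linc- genes with a pooled peak became 47 with the point inside the gene, 52 near an annotated start and 50 among the 10000 strongest peaks, and stayed within 1.5 times under 7 other settings. The 36 genes with a peak overlapped in both replicates became 23 within 200 bp, 18 inside the gene and 14 near a start. The 5 genes with an IDR peak became 1 near a start, 8 with the 500 strongest pooled peaks, and 2 to 3 with the 203 strongest of a single replicate. The median best rank of 7247 became 11354 near a start and 8162 to 9889 in a single replicate's own list. The forkhead share of 9.09% became 19.0% with the looser core, which is a wider pattern. The density of 0.322 per kb became 0.296 and 0.310 with 200 and 1000 bp flanks, and 0.380 and 0.282 in the lists of replicates 1 and 2. With 500 bp flanks, protein-coding loci held 0.310 per kb in the pooled list, 0.310 in replicate 1 and 0.252 in replicate 2. Their density with other flanks was not computed. Median score (6.76 to 6.98) moved little. Settings that restrict the window or the list admit fewer peaks by construction. In an alternative chosen after seeing the data, linc- genes that overlap no protein-coding gene gave 66, 31 and 4 of 130. No paired analysis was possible because there is 1 group. Limits are the 2 replicates, the unknown depth, the absence of a control library here and an unstated score scale.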

Other observations

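The biotype holds 25 further lincRNA genes with names of other kinds. Of these, 11 had a pooled peak within 500 bp (44.0%, Wilson 95% interval 26.7 to 62.9), 0 had one overlapped in both replicates (upper limit 13.3%) and 0 had an IDR peak. Their 13 peaks had a median score of 6.21, and none was among the 3000 strongest of the pooled list. The best belonged to Y54G11A.20 (score 9.59, rank 4181), with a counterpart in replicate 2 alone, and K07C10.8 (8.93, rank 5315), with one in replicate 1 alone. Lep-5, a lincRNA gene known for its part in the timing of male tail development, had 1 peak (6.13, rank 15418), with a counterpart in replicate 2 (rank 12254) and none in replicate 1. The counterpart of highest rank was that of C07D10.7, at 919 in replicate 2, for a pooled peak that ranked only 22214.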
